A study of Mus musculus with 11 samples.

Results

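Fos, Fosb, Jun, Junb, Egr1, Ier2, Atf3, Dusp1, Nr4a1 and Zfp36 are immediate early genes, and their transcripts were followed here through 11 RNA-seq libraries of mouse inguinal mammary gland. These 10 genes were taken by name, with no threshold on a measured value, out of 22196 genes with reads summed from the deposited tables. All 10 passed the filter on low counts, which kept 12716 genes. The Knockout group held 6 libraries from mice of the genotype Tsc1-fl/fl; Adipoq-Cre-Tg/+. The Wild-Type group held 5 libraries from mice of the genotype Tsc1-fl/fl; Adipoq-Cre-+/+. Both groups therefore carried floxed Tsc1 alleles, and only the Knockout mice had the Cre transgene, which is driven by the adiponectin promoter of fat cells. Every sample bore the strain label Adipocyte Tsc1 Knockout, a normal chow diet and the age label PND16.5, while the protocol text places the collection 16 days after delivery with milk and chow freely available. The labels do not settle whether the glands came from lactating dams or from young of that age. In every library, genes of milk proteins took between 50.7 and 63% of the reads assigned to genes. The labels give no litter, collection day or sequencing batch, and do not say how many animals were pooled, so the p-values measure the spread between these libraries.

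Immediate early genes are transcribed within minutes of a stimulus such as a growth factor, a hormone or stress, and need no new protein synthesis for it. Kinase cascades activate factors already bound to their promoters, CREB and ATF proteins at the cyclic AMP response element (CRE) and serum response factor at the CArG box. Many of the products are transcription factors, and others, such as the phosphatase DUSP1 and the RNA-binding protein ZFP36, shut the response down again.

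Promoters are shown because most of those found share an element, TGACG, that had no part in choosing the members. RefSeq promoter entries on GRCm38.p6 were found for 8 of the 10 members, all but Egr1 and Ier2. The 250 bases before the start site were searched on both strands, and elements farther upstream were not looked for. The CRE core TGACG was present in 6 of the 8, namely Fos, Fosb, Junb, Atf3, Dusp1 and Nr4a1, against 17.8% of 32851 mouse promoters of the same length. The full palindrome TGACGTCA, which contains that core on both strands, was found in 1 member, Dusp1, against 1.55% of all promoters. TATAAA stood in 1 member, Fos, against 12.4% of promoters. The AP-1 element TGACTCA was in 0 of the 8 against 4.46%, and the CArG box was in 1, Zfp36, against 1.47%. These matches describe letters and were not tested as binding sites. The windows of Fos, the most abundant member, and of Dusp1, the member with the lowest p-value between genotypes, are printed 5′ to 3′ with capitals on TGACG, the palindrome and TATAAA. For Dusp1, 47 bases next to the start site that the annotation has as transcribed were left off.
Fos (chr12:85473640-85473889, + strand): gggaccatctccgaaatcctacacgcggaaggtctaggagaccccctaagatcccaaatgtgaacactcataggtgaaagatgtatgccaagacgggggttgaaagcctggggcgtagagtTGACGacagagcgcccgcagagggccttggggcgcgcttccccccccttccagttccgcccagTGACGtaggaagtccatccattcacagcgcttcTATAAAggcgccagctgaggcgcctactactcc
Dusp1 (chr17:26508520-26508722, - strand): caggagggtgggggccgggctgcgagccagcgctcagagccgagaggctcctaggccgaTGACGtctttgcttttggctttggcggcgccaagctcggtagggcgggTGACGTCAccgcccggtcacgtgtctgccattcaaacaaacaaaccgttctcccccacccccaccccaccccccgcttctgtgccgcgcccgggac
In Fos the cores began 129 and 66 bases before the start site and TATAAA began 33 bases before it. In Dusp1 the palindrome began 143 bases before the start site, and a further core began 191 bases before it. Stretches of 31 bases around the core nearest the start site are given for Fosb, Junb and Nr4a1, with the core, or its complement CGTCA, in capitals.
Fosb (chr7:19310088-19310118, - strand): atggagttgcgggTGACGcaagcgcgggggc
Junb (chr8:84978837-84978867, - strand): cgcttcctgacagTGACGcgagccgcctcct
Nr4a1 (chr15:101266793-101266823, + strand): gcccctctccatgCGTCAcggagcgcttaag
The Nr4a1 stretch lies inside the annotated Nr4a1 gene, outside its exons, because longer transcripts start further upstream. The Dusp1 window lies in the span of a longer Dusp1 transcript, also outside exons, and the other windows printed here overlap no annotated gene.

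Each library held between 25817975 and 37894237 estimated reads, of which 25758077 to 37820269 were assigned to genes. Genes of milk proteins took 50.7 to 59.3% of the latter in Knockout and 56.7 to 63% in Wild-Type libraries. Tsc1 itself averaged 10.1 ± 1.33 CPM in the Knockout glands (SD, n = 6) against 10.7 ± 1.11 CPM in the Wild-Type glands (SD, n = 5), with -0.09 ± 0.11 (SE, adjusted p 0.772 by edgeR) as the log2 fold change, so the whole-gland level does not separate the labels. The 8 adipocyte markers summed to 1155 to 1694 CPM in Knockout libraries, against 697 to 1019 CPM in the Wild-Type group. Cfd made up most of these sums, with means of 905 and 527 CPM, and the median log2 fold change of the 8 was 0.28, with 7 higher and 1, Lep, lower. Of the 8, 4 had an unadjusted edgeR p below 0.05, all higher in Knockout, against 12.4% of all genes and 6.31% in the higher direction. The adjusted threshold was passed by 0 in edgeR and 3 in DESeq2, against 0.055% and 1.17% of genes. In bulk tissue, fewer cells of a type and less RNA per cell cannot be told apart. CPM below are counts divided by the TMM-scaled library size, log2 fold changes are Knockout minus Wild-Type, and adjusted p-values are Benjamini-Hochberg values over all 12716 genes.

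In 9 of the 10 members the difference between genotypes was smaller than its own standard error, while single libraries differed by a factor between 2.23 and 28.5. Dusp1 was the member with a lower Knockout mean at an unadjusted p below 0.05. None of the 10 passed an edgeR adjusted p of 0.05, which 0.055% of all genes passed, and 1 of 10 had an unadjusted p below 0.05, against 12.4% of all genes. In the higher direction 0 of 10 had such a p, against 6.31% of all genes. By DESeq2, 1 of the 10 passed the adjusted threshold, against 1.17% of genes. The groups overlapped in CPM for every member, while 1.32% of all genes had groups that did not overlap. The members' median log2 fold change was 0.04, beside -0.01 for all genes tested. By the sign of the fold change 6 members had higher and 4 had lower Knockout values, but each of the 9 other than Dusp1 changed sign when some single library was left out, and their fold changes lay between -0.13 and 0.56 with SEs of 0.20 to 0.68.

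**Figure D1:**
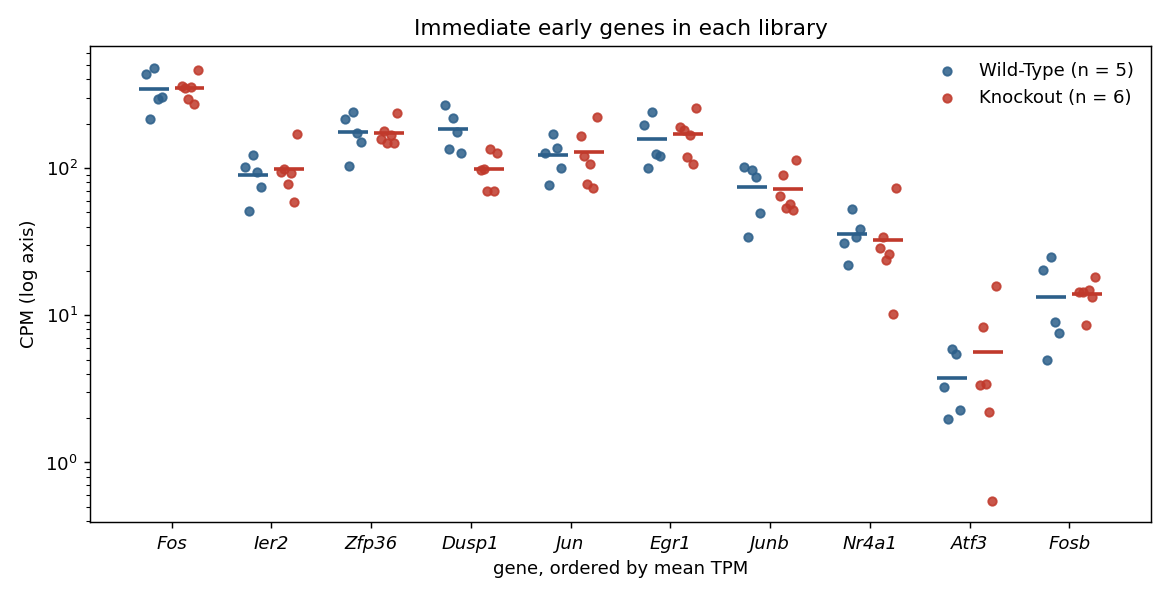
Each point is 1 library, in CPM on a log axis, for the 10 genes ordered by mean TPM. Blue points are Wild-Type (n = 5), red points are Knockout (n = 6), and lines are arithmetic means. Dusp1 is the gene whose Knockout mean (98.9 CPM) lies well below its Wild-Type mean (185 CPM), and its groups still overlap.

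Among the AP-1 genes, Fos (ENSMUSG00000021250, chr12:85473890-85477273) encodes a subunit that binds DNA only as a dimer with JUN proteins. Its Knockout libraries ran from 272 CPM through a median of 351 to 460 CPM. Its Wild-Type libraries measured 435, 215, 480, 295 and 305 CPM. The lowest and the highest Fos values were thus both in Wild-Type libraries, and the Knockout values lay between them. The log2 fold change was 0.01 ± 0.20 (SE), with an edgeR adjusted p of 0.99 and a 95% interval from -0.42 to 0.44.

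Fosb (ENSMUSG00000003545, chr7:19302696-19310051), a paralog of Fos known for its long-lived truncated splice form, was 8.52 to 18.3 CPM in Knockout, with a median of 14.4 CPM. In Wild-Type libraries it was 20.4, 4.93, 24.9, 8.99 and 7.55 CPM. Wild-Type libraries 1 and 3 exceeded every Knockout library and Wild-Type 2 and 5 lay below every one, so that the Wild-Type SD was 8.77 CPM against 3.17 CPM in Knockout. The log2 fold change was 0.06 ± 0.39 (SE, adjusted p 0.965 by edgeR). Nearly all Fosb reads were assigned to the transcripts ENSMUST00000003640 and ENSMUST00000207334, and the share estimated for the latter varied from 2.53% to 28.1% between libraries. A further transcript, ENSMUST00000208505, had at most 9 reads in a library, and the other 3 Fosb transcripts in the tables were listed at 0 in all 11 libraries. Which of the Fosb transcripts encodes the truncated form was not examined.

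Jun (ENSMUSG00000052684, chr4:95049034-95052222) supplies the usual dimer partner of FOS. It spanned 72.8 to 223 CPM in Knockout with a median of 114 CPM, and was 127, 77.1, 170, 137 and 100 CPM in Wild-Type libraries. Both the lowest and the highest Jun value came from Knockout glands, libraries 5 and 6, and the log2 fold change was 0.06 ± 0.30 (SE, adjusted p 0.954 by edgeR). Junb (ENSMUSG00000052837, chr8:84974484-84978718), a JUN relative with weaker activation on many targets, ran from 51.6 through 60.7 (median) to 113 CPM in Knockout. Wild-Type Junb was 101, 34.2, 97.1, 86.6 and 49.7 CPM. For Junb, 3 Wild-Type libraries stood with the 2 highest Knockout libraries and 2 stood below every Knockout library, with a log2 fold change of -0.04 ± 0.31 (SE, adjusted p 0.97 by edgeR). An antisense gene, Junos, overlaps Jun, and Prdx2 overlaps Junb on the other strand. The library kit marks strand per the labels, but whether the quantification used it is not given in the sources used here, so reads in those overlaps are uncertain.

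Atf3 (ENSMUSG00000026628, chr1:191170296-191218039), a stress-induced repressor of the ATF family, was the most variable member. It spanned 0.551 to 15.7 CPM in Knockout with a median of 3.38 CPM, and was 3.26, 1.96, 5.91, 5.44 and 2.28 CPM in Wild-Type libraries. The range within Knockout, 28.5-fold from library 5 (15 reads) to library 6 (551 reads), enclosed every Wild-Type value. The log2 fold change was 0.56 ± 0.68 (SE, adjusted p 0.773 by edgeR), and it was -0.08 without Knockout 6.

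The groups also overlapped for the remaining members that act on transcription. Egr1 (ENSMUSG00000038418), a zinc finger activator and classic target of serum response factor, ran from 107 through 173 (median) to 257 CPM in Knockout. In Wild-Type libraries Egr1 was 196, 100, 240, 124 and 121 CPM. The Egr1 groups overlapped over almost their whole ranges, with a log2 fold change of 0.12 ± 0.27 (SE, adjusted p 0.886 by edgeR). Nr4a1 (ENSMUSG00000023034, chr15:101254269-101274795), an orphan nuclear receptor, spanned 10.2 to 72.5 CPM in Knockout with a median of 27.1 CPM. Wild-Type Nr4a1 was 31, 21.9, 52.2, 34 and 38.2 CPM. Again Knockout libraries 5 and 6 marked both ends, and the log2 fold change was -0.13 ± 0.41 (SE, adjusted p 0.927 by edgeR). Ier2 (ENSMUSG00000053560, chr8:84661331-84662852), a small nuclear protein, ran from 58.3 through 92.9 (median) to 171 CPM in Knockout. Wild-Type Ier2 was 102, 51.3, 123, 94.4 and 73.9 CPM. Knockout 6 was the only Knockout library above the highest Wild-Type value, and the log2 fold change was 0.15 ± 0.28 (SE, adjusted p 0.86 by edgeR).

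The remaining members encode brakes on the response. Zfp36 (ENSMUSG00000044786, chr7:28376784-28380253) encodes tristetraprolin, which binds AU-rich elements and speeds the decay of cytokine and early gene mRNAs. It was 147 to 237 CPM in Knockout, median 162 CPM, and 216, 103, 238, 172 and 150 CPM in Wild-Type libraries. The highest values of both groups were nearly equal, and the log2 fold change was -0.03 ± 0.20 (SE, adjusted p 0.971 by edgeR).

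Dusp1 (ENSMUSG00000024190, chr17:26505590-26562128) encodes a phosphatase that inactivates the MAP kinases p38, JNK and ERK. Knockout libraries 1 to 6 held 96.3, 98.6, 69.2, 134, 69.7 and 126 CPM. Wild-Type libraries 1 to 5 held 269, 134, 219, 176 and 127 CPM. Knockout 4 exceeded the lowest Wild-Type library, number 5, and the other 5 Knockout libraries lay below all Wild-Type libraries. Knockout glands averaged 98.9 ± 27.2 CPM (SD, n = 6) and Wild-Type glands 185 ± 59.6 CPM (SD, n = 5), a fitted ratio of 0.535 and a log2 fold change of -0.90 ± 0.23 (SE) with a 95% interval from -1.41 to -0.39. The unadjusted edgeR p was 0.00235, a level below 0.05 that 6.08% of all genes reached in the lower direction, and the edgeR adjusted p was 0.23. DESeq2 gave the same log2 value with an adjusted p of 0.016, while 0.482% of genes were called lower by that test. The DESeq2 adjusted p was 0.0537 without Knockout 3 and 0.0671 without Wild-Type 3, and stayed below 0.05 when any other single library was left out. The transcript ENSMUST00000236661 took between 10.5% and 18.3% of the Dusp1 reads of a library, and ENSMUST00000025025 nearly all the rest. A long transcript model stretches the annotated gene over Ergic1 on the other strand, but at most 8 reads per library were assigned to that model. The adipocyte marker sums given above also differed between the genotypes. The correlation of Dusp1 with the mean of those markers was -0.26 over the 11 libraries (permutation p = 0.445, adjusted 0.966, Spearman rho -0.22), and the corresponding value for B cell markers was 0.19 (permutation p = 0.572, adjusted 0.98, Spearman rho 0.32). The 6 B cell markers summed to between 0.808 and 13.8 CPM over Knockout and between 1.93 and 69.8 CPM over Wild-Type libraries. All 4 of them that passed the filter had an unadjusted edgeR p below 0.05 in the lower direction, with a median log2 fold change of -2.77, and 0 passed the adjusted threshold. Other lists also leaned one way by the sign of the log2 fold change, with 7 of 7 milk secretory markers (median -0.27) and 5 of 5 tested T cell markers (-1.27) lower, and 6 of 6 fibroblast (0.35), 6 of 6 myoepithelial and smooth muscle (0.22) and 6 of 6 skeletal muscle markers (2.24) higher in Knockout. The skeletal muscle markers summed to between 2.38 and 2040 CPM over Knockout and between 1.41 and 172 CPM over Wild-Type libraries. Over the 10 library measures, r with Dusp1 lay between -0.30 for luminal epithelium markers and 0.42 for total reads, and none passed the adjusted permutation threshold. The part of these cell types in the Dusp1 difference was not tested.

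Per coding length, Fos had the highest level of the 10. The lengths listed for the members' transcripts are close to their coding lengths (1143 listed against 1140 coding bases for Fos), so TPM here leaves out untranslated regions. Mean TPM, which is not TMM-scaled, was 140 ± 36.4 (SD, n = 11) for Fos, 92.7 ± 35.7 for Ier2, 90.1 ± 22.6 for Zfp36, 80.6 ± 28.1 for Dusp1 and 64.7 ± 28.7 for Jun. Egr1 followed at 42.2 ± 15.8 TPM and Junb at 35.1 ± 13.2 TPM. The lowest levels were those of Nr4a1 at 7.55 ± 3.89, Atf3 at 6.98 ± 6.53 and Fosb at 6.67 ± 2.69 TPM. Only the gaps between Fos and Ier2 and between Junb and Nr4a1 exceeded the larger SD of the neighbours. Within libraries, Fos was above Ier2, Jun above Egr1, and Junb above Nr4a1 in 11 of 11, and Egr1 was above Junb in 10 of 11. By group means Dusp1 ranked 2 in Wild-Type glands at 101 ± 26.1 TPM (SD, n = 5) and 5 in Knockout glands at 63.6 ± 16.4 TPM (SD, n = 6).

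The members varied more between libraries than most genes did. The SD of log2 CPM over the 11 libraries had a median of 0.53 over the members and 0.24 over all genes tested. All 10 members exceeded the median gene. Atf3 (1.22), Nr4a1 (0.72), Fosb (0.69) and Dusp1 (0.62) exceeded 0.61, the value below which 90% of genes lay. The ratio of the highest to the lowest library was 2.23 for Fos, 2.31 for Zfp36, 2.57 for Egr1, 3.06 for Jun, 3.29 for Junb, 3.34 for Ier2, 3.89 for Dusp1, 5.06 for Fosb and 7.1 for Nr4a1.

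The same libraries were high or low for most members. Knockout 6 was the highest library for 6 members, Wild-Type 3 for 3 and Wild-Type 1 for Dusp1 alone. Wild-Type 2 was the lowest for 6 members and Knockout 5 for 3. The mean over the members of log2 CPM, each centred on its own mean, was 0.82 in Knockout 6, 0.64 in Wild-Type 3 and 0.36 in Wild-Type 1, against -0.76 in Knockout 5, -0.69 in Wild-Type 2 and -0.37 in Knockout 3. Each end of this order thus held libraries of both genotypes. In Wild-Type 2, 1 of 10 members stood above its own mean, and that member was Dusp1 (0.08 above).

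**Figure D2:**
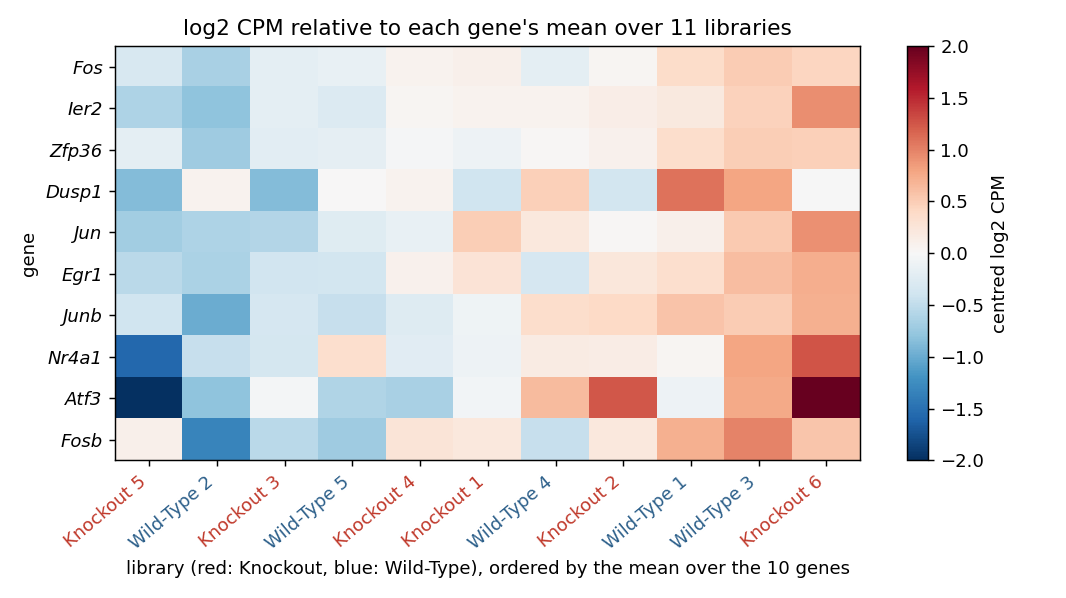
Rows are the 10 genes, columns the 11 libraries ordered by the mean over the genes (red names Knockout, blue names Wild-Type), and colours give log2 CPM minus the gene's mean over the libraries, with the scale ending at -2 and 2. Colours run from blue at Knockout 5 and Wild-Type 2 (means -0.76 and -0.69) to red at Wild-Type 3 and Knockout 6 (0.64 and 0.82) in most rows, and the Dusp1 row departs from this.

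All 45 pairs of members had a positive Pearson correlation of log2 CPM over the 11 libraries. The median r was 0.79, with a range from 0.32 to 0.95, and the median Spearman rho was 0.78. By permutation with Benjamini-Hochberg adjustment over the 45 pairs, 32 pairs passed 0.05 for r and 33 for rho. For comparison, the median over all pairs of the 12716 genes was -0.00, and 0.549% of those pairs had an r of 0.79 or more. The closest pairs were Fos with Egr1 (r = 0.95, adjusted permutation p 0.000225), Fos with Zfp36 (r = 0.95, adjusted 0.000675) and Junb with Zfp36 (r = 0.94, adjusted 0.0003). The least close pairs outside Dusp1 reached r = 0.35. Fosb and the pair Atf3 and Nr4a1 were apart from each other, with r = 0.35 for Fosb with Atf3 and 0.36 for Fosb with Nr4a1, while Atf3 with Nr4a1 reached 0.89. The 2 libraries farthest from the median of a gene carried part of the relation: without them the median r was 0.70 and the lowest 0.07, with all 45 pairs still positive. Leaving out single libraries gave medians from 0.74, without Knockout 6, to 0.83. In the 6 Knockout libraries alone the median r was 0.84, and 19 pairs passed the adjusted threshold by exact permutation, whose smallest p over 720 orders is 0.00139. No correlation was computed over the 5 Wild-Type libraries alone, since at least 6 were required.

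Dusp1 was the exception. Its 9 pairs had r between 0.32 and 0.52 with a median of 0.46 and adjusted permutation p-values from 0.129 to 0.336, so none passed. Of the 36 pairs without Dusp1, 32 passed, with a median r of 0.82, a value reached by 0.309% of all gene pairs. Once each gene was centred on its mean within each genotype, the 9 pairs with Dusp1 rose to r between 0.51 and 0.84, median 0.77, and 7 of the 9 passed, as did 41 of all 45 pairs. Without any 1 library, the median centred r of these 9 pairs was 0.72 to 0.85. In Knockout libraries alone the Dusp1 pairs had a median r of 0.71, and none of the 9 passed the adjusted threshold. Dusp1 thus had higher correlations with the other members once the difference between its group means was removed. That increase was not itself tested.

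**Figure D3:**
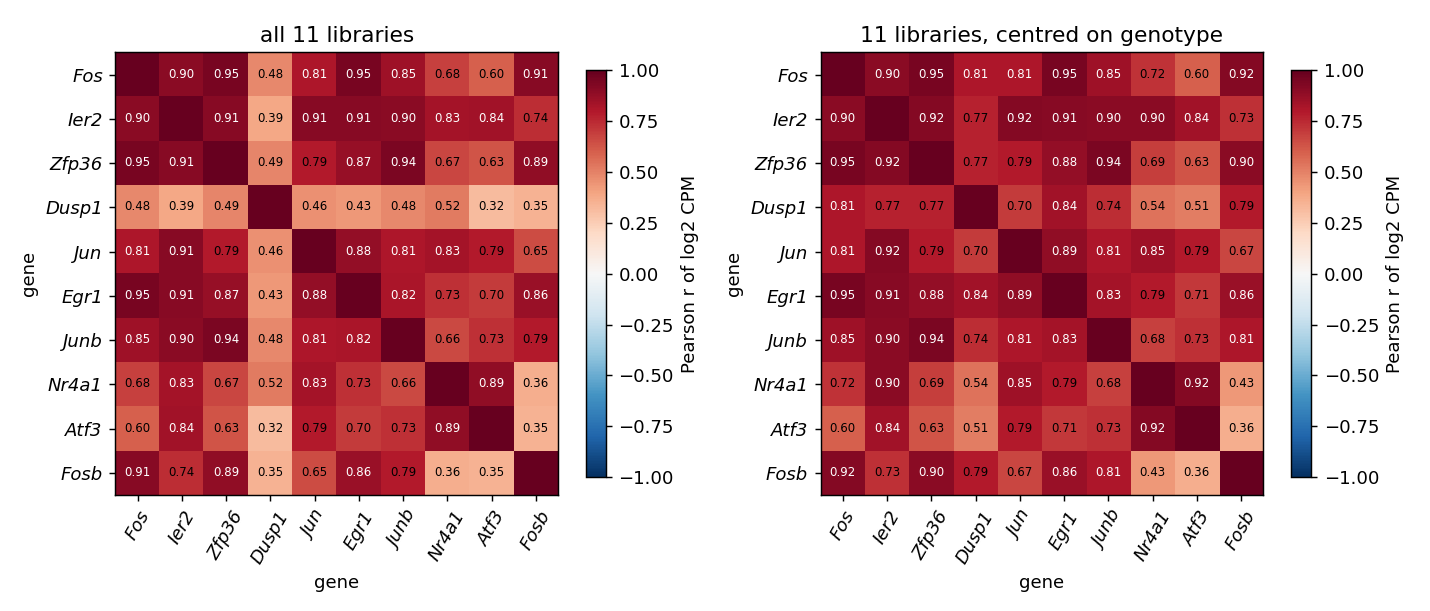
Both panels give Pearson r of log2 CPM for each pair of the 10 genes over the 11 libraries, at left as measured and at right after centring on the mean of each genotype. The Dusp1 row is pale at left (0.32 to 0.52) and closer to the other rows at right (0.51 to 0.84).

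The offset was also read from ratios within a library, a comparison chosen after the values were seen, and Dusp1 was picked for its difference, so these values describe it and are no independent evidence. Dusp1 CPM divided by Fos CPM was 0.267, 0.284, 0.235, 0.376, 0.256 and 0.274 in Knockout libraries 1 to 6. It was 0.617, 0.622, 0.455, 0.596 and 0.417 in Wild-Type libraries 1 to 5. The highest Knockout ratio lay below the lowest Wild-Type ratio, which for genes relative to Fos was so in the lower direction for 0.0786% of those tested. The log2 difference was -0.94 (exact permutation p = 0.00433, two-sided, adjusted 0.00722 over 10 such ratios) and lay between -1.03 and -0.88 when any 1 library was left out. The groups were also apart relative to Jun, Egr1, Ier2 and Zfp36, which in the lower direction was so for 0.00786%, 0.00786%, 0.0393% and 0.0629% of genes tested, in that order. They overlapped relative to Fosb, Junb, Atf3, Nr4a1 and the mean of the 9 other members. Relative to Atf3 the log2 difference was -0.93 (exact permutation p = 0.208) and relative to Nr4a1 it was -0.58 (exact permutation p = 0.152).

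With log2 Fos as a covariate in edgeR, the Dusp1 log2 fold change was -0.94 ± 0.14 (SE) with an adjusted p of 0.0419, in a fit that called 0.0786% of genes in all and 0.0236% lower. That call was lost in 10 of the 11 fits that left out 1 library, with edgeR adjusted p-values of 0.056 to 0.184, and was kept without Wild-Type 5, at 0.0255. With the mean of the 9 other members as the covariate, the value was -0.91 ± 0.16 (SE) and the edgeR adjusted p 0.0923, in a fit that called 0.055% of genes and 0.00786% in the lower direction.

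**Figure D4:**
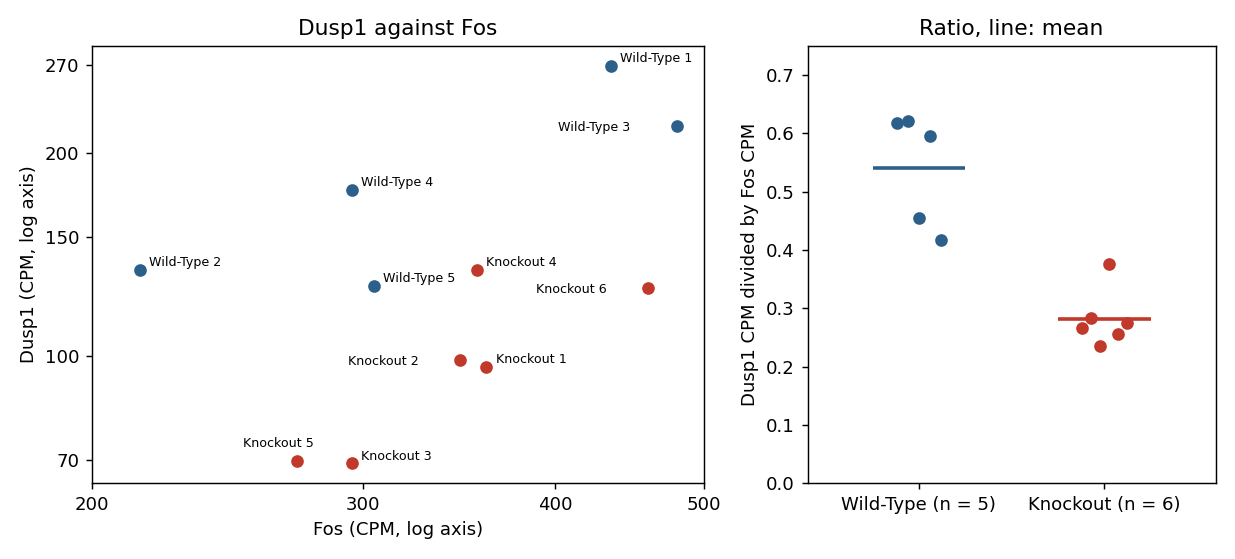
At left, Dusp1 CPM is plotted against Fos CPM on log axes, 1 point per library, and the Knockout points (red) lie below the Wild-Type points (blue) at like Fos levels. At right, the ratio of both CPM values is shown with the group means as lines: Knockout libraries lie between 0.235 and 0.376, Wild-Type libraries between 0.417 and 0.622.

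Depth and cell type markers were set beside the members. Over 10 members and 10 measures of a library, 0 of 100 correlations passed the adjusted permutation threshold (lowest adjusted p 0.388), and 11 had an unadjusted p below 0.05. Total reads correlated positively with every member, r from 0.31 to 0.74 with a median of 0.61, and reached an unadjusted permutation p below 0.05 for Fos (0.74), Egr1 (0.70), Jun (0.68), Fosb (0.64), Ier2 (0.63) and Zfp36 (0.60). T cell markers correlated negatively with every member, r from -0.79 to -0.10, and reached that level for Fosb (-0.79), Junb (-0.67), Zfp36 (-0.67) and Fos (-0.62). B cell markers reached it for Fosb (-0.65), which was -0.16 without the 2 libraries farthest from the median. Summed CPM of the 6 T cell markers lay between 1.09 and 6.42 for Knockout, and between 0.876 and 21.8 for Wild-Type, with no marker at 0 reads throughout. The share of milk protein reads had r between -0.35 and 0.38 with the members. The part of depth or of these cells in the covariation was not tested.

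By list medians, related genes had lower correlations with the members' mean, though some of them exceeded single members. The difference was not tested. Over the members, r with the mean of the other 9 had a median of 0.90 and a range from 0.47 for Dusp1 to 0.96 for Ier2. Among 21 tested genes of 22 other early transcription factors, r with the members' mean had a median of 0.48. Fosl2, another FOS relative, reached 0.82 and Egr2, a relative of Egr1, 0.76, while Klf2 stood at -0.41. Among 32 tested of 33 effector and feedback genes the median r was 0.33, with Btg2 at 0.93, the phosphatase gene Dusp5 at 0.80 and Dusp2 at -0.49. For 19 kinases and regulators upstream of the early genes the median r was 0.16, and for 10 heat shock genes it was 0.13. Those 2 lists were followed as comparisons because their proteins act before or beside the early genes.

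**Figure D5:**
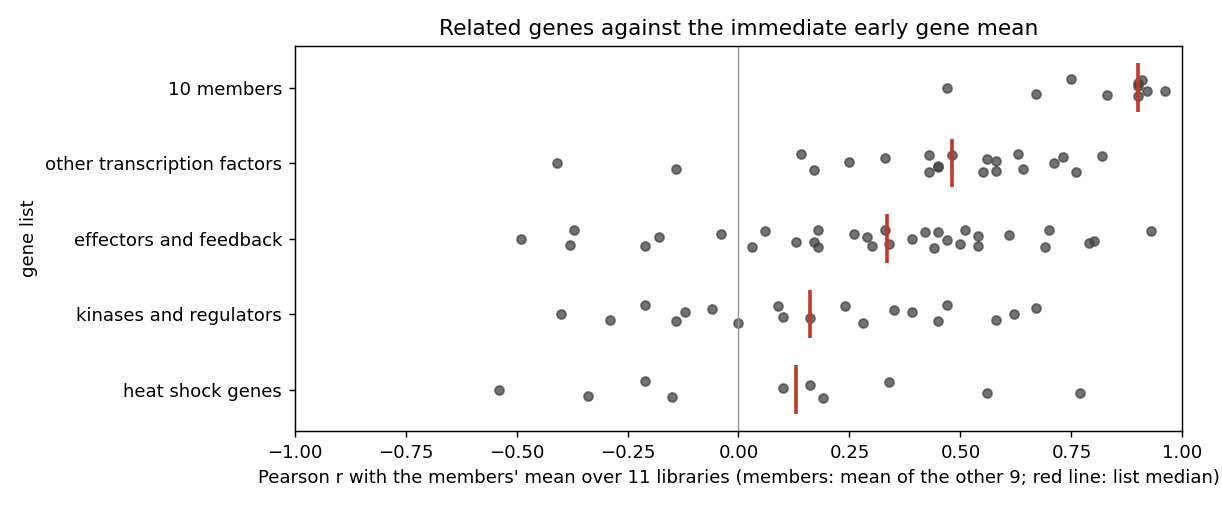
Each point is a gene, placed by its Pearson r with the mean centred log2 CPM of the 10 members over 11 libraries (a member against the mean of the other 9), and red lines are list medians. The medians fall from 0.90 for the members to 0.48 for other early transcription factors, 0.33 for effectors, 0.16 for kinases and regulators and 0.13 for heat shock genes.

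Between genotypes, 0 genes of these 4 lists passed an edgeR adjusted p of 0.05. Over all genes tested, 12.4% had an unadjusted p below 0.05, 6.31% in the higher and 6.08% in the lower direction. Of the 21 transcription factors, 3 had an unadjusted p below 0.05, all lower in Knockout, and the median log2 fold change was -0.10. Bhlhe40, a circadian and stress-responsive repressor, averaged 10.4 ± 0.36 CPM in the Knockout group (SD, n = 6) against 14.8 ± 3.2 CPM in the Wild-Type group (SD, n = 5). Its log2 fold change of -0.51 ± 0.13 (SE) had an adjusted p of 0.228 in edgeR and 0.0455 in DESeq2. Csrnp1 had a log2 fold change of -0.60 ± 0.21 (SE, adjusted p 0.316 by edgeR). Klf6 (0.45) and Nr4a3 (0.87) had the smallest p-values among those with higher Knockout means, edgeR adjusted p 0.534 and 0.583. Of the 32 effectors, 2 were higher and 5 lower at an unadjusted p below 0.05, with a median log2 fold change of -0.09. Plk2, a polo-like kinase gene, ran from 6.94 to 9.86 CPM over Knockout and from 4.18 to 6.58 CPM over Wild-Type glands, without overlap, as for 1.32% of all genes, and its log2 fold change was 0.53 ± 0.14 (SE) with an adjusted p of 0.228 in edgeR and 0.0396 in DESeq2. Gadd45a, a growth arrest gene, had a log2 fold change of 0.99 ± 0.38 (SE, adjusted p 0.341 by edgeR). Sgk1, a kinase gene induced by glucocorticoids, had -0.79 ± 0.30 (SE, adjusted p 0.35 by edgeR), and the phosphatase gene Dusp2 -1.50 ± 0.62 (SE, adjusted p 0.363 by edgeR). Other MAP kinase phosphatase genes had nearly equal means, with log2 fold changes of 0.02 ± 0.40 (SE) for Dusp4, -0.00 ± 0.27 for Dusp5 and 0.05 ± 0.20 for Dusp6; they were singled out after their values were seen. Of the upstream genes, 2 were higher and 1 lower at an unadjusted p below 0.05. Rps6ka3, which encodes an ERK-activated kinase, had the smallest of those p-values, with a log2 fold change of 0.39 ± 0.11 (SE) and an edgeR adjusted p of 0.259. Its groups did not overlap either, at 13.2 to 16.1 CPM for Knockout and 8.23 to 13.1 CPM for Wild-Type. Atf1 (0.17), Mrtfa (-0.27) and Map2k2 (-0.14) had edgeR adjusted p-values of 0.403, 0.368 and 0.532. None of the 10 heat shock genes had an unadjusted p below 0.05, and their nearest, Bag3, had a log2 fold change of 0.23 ± 0.11 (SE, adjusted p 0.415 by edgeR). Dnajb1 (0.18), Hspa8 (-0.15) and Hspe1 (-0.15) had edgeR adjusted p-values of 0.768, 0.66 and 0.727.

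Outside the members, the gene most like their mean was Btg2, an antiproliferative early gene, with r = 0.93 over the 11 libraries. It was followed by P2rx4, an ATP-gated channel gene, at 0.91, Slc37a3 at 0.88, Nr3c2, the mineralocorticoid receptor gene, at 0.87 and Lrp11 at 0.86. Gdi2, Zhx3 and Casp2 reached 0.85, Actg1 (cytoplasmic gamma actin) 0.84 and Slc25a36 0.83. Of 12706 non-members, 19 had an r of 0.8 or more, and the median over all genes tested was -0.01. Btg2 also shared the members' spread, from 16.9 to 54.1 CPM (SD of log2 CPM 0.51), whereas Gdi2 moved only between 122 and 156 CPM (0.11). Neither differed between genotypes beyond its error, with log2 fold changes of 0.01 (edgeR adjusted p 0.989) and 0.03 (edgeR adjusted p 0.911).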

How the data were processed

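Per the submitters' processing notes, Salmon 1.3.0, DESeq2 1.28.1 and GRCm38.p6 were used. Per the file headers, each deposited table gives transcripts with their estimated counts, TPM and other columns for length. The authors also deposited a gene table of normalized values, read here as a signal in the units of the authors. Estimated counts were summed per gene by GENCODE M21 identifier (57452 of 58204 transcripts matched, the rest held 0.195 to 0.265% of reads) and rounded. Genes were tested with edgeR 4.0.16 (R 4.3.3), filterByExpr, TMM scaling and a robust quasi-likelihood F test with Benjamini-Hochberg adjustment. limma 3.58.1 and DESeq2 1.42.0 were alternatives, as were other scalings, filters, a replicate block and leaving out single libraries. Log2 CPM used a prior count of 2, and correlations 100000 permutations. TPM was used for levels between genes. On simulated counts of 12585 genes the test called 95% of 100 genes changed by 1 on the log2 scale and 98% of 100 changed by 2. It called 0.0807% of the 12385 unchanged genes. The changed genes were drawn at random above a minimum mean CPM, while the members varied more than most genes. These shares therefore do not tell how often a change in a member would be called. Members and lists were chosen with earlier results of these data known. Named genes are the members, Tsc1, from each list other than cell type markers the 2 of lowest p in either direction, and the 10 non-members most like the members' mean, predicted genes passed over. Other genes named were chosen after their values were seen. Depth was 25817975 to 37894237 reads, and 15 reads was the lowest count of any member.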

Additional observations from a re-analysis of the deposited data

How the results depend on the processing

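The log2 fold change of Dusp1 kept its negative sign in all alternatives, from -0.96 to -0.69, and from -1.01 to -0.73 without single libraries (edgeR adjusted p 0.201 to 0.366). It passed the adjusted threshold in DESeq2 (-0.90, adjusted p 0.016) and with Fos as a covariate in edgeR (-0.94, adjusted p 0.0419). The covariate fits were chosen after seeing the data, for a gene picked for its difference. The Fos call was lost in 10 of 11 fits that left out a library, and with the mean of the 9 other members as the covariate the adjusted p was 0.0923. DESeq2 called 146 genes against 7 in edgeR, with 1 member, 1 gene of the other transcription factors and 1 effector gene. The labels do not say whether shared replicate numbers pair the libraries. The correlations of same-numbered deviations were -0.02, -0.10, 0.19, -0.22 and -0.21, and 1 of 10 libraries correlated best with its own number. These values show no strong likeness by number, but so few pairs cannot exclude a pairing. The replicate block could hold only numbers present in both groups, so Knockout 6 was left out of it. In that fit edgeR called 0 genes, Dusp1 was -0.96 (adjusted p 0.53), and Fos (-0.03), Jun (-0.18), Ier2 (-0.04) and Atf3 (-0.39) changed sign. Without Knockout 6 and with no block, edgeR also called 0 genes. Fos (-0.08), Jun (-0.17), Ier2 (-0.08) and Atf3 (-0.08) changed sign there too, as did Fosb (-0.03) and Egr1 (-0.03). What the block itself changed therefore cannot be told apart from the loss of Knockout 6. Scaling by library totals alone moved the median log2 fold change of all genes to 0.18, and Junb (0.17), Nr4a1 (0.08) and Zfp36 (0.18) changed sign there without exceeding that shift. In limma-voom Jun (-0.00), Junb (0.01) and Zfp36 (0.01) changed sign. Without single libraries edgeR called 0 to 28 genes (0 without Knockout 3 or Knockout 6, 28 without Knockout 2), 0 members and 0 to 1 of the other transcription factors. The fold changes then ran from -0.12 to 0.16 for Fos, -0.15 to 0.41 for Fosb, -0.17 to 0.21 for Jun, -0.23 to 0.10 for Junb, -0.03 to 0.33 for Egr1, -0.08 to 0.29 for Ier2, -0.08 to 0.80 for Atf3, -0.53 to 0.06 for Nr4a1 and -0.17 to 0.11 for Zfp36, so no direction is given for these 9. The cause of these changes was not tested. The median r over pairs was 0.78 to 0.81 in the alternatives and 0.74 to 0.83 without single libraries, with 25 to 33 pairs past the threshold in the latter.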
